A study of Mus musculus with 6 samples.

Results

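Follicular helper-like CD4 T cells of the mouse pancreatic lymph node were selected cell by cell on their own RNA. A cell was taken when it held at least 1 UMI (unique molecular identifier, a tag that counts each captured RNA molecule) of Cd4 and of the CD3 genes Cd3d, Cd3e or Cd3g, none of Cd8a, Cd8b1, Foxp3, Cd79a, Cd79b and Ms4a1, and UMIs of 2 or more of the 5 genes Cxcr5, Pdcd1, Il21, Bcl6 and Tox2. Of 56310 cells that passed the quality limits, 13090 met the conventional CD4 criteria and 251 of these (1.92%) had 2 or more of the 5 genes. The remaining 12839 are called the other conventional CD4 cells. Because these measured values chose the cells, the levels of the gate genes are a description and were not tested between cell classes. The tests of genotype, given below, did not leave them out.

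The 6 libraries formed 2 groups of 3. The labels give 3 mice and 3 replicate libraries per group without tying each library to a mouse, and each library is taken here as 1 mouse. All 6 mice carried a floxed gene, 3 without the Cre transgene (CD4-Cre-, here Cre-negative 1 to 3) and 3 with it (CD4-Cre+, here Cre-positive 1 to 3). Cre recombinase excises DNA between loxP sites, and the Cd4 promoter drives it in T cells that have passed the Cd4-expressing stage in the thymus, a stage that CD8 T cells pass as well. Strain, sex, age and any treatment are not given in the labels used here.

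Follicular helper T cells are the CD4 cells that help B cells in follicles and germinal centres. They follow the chemokine receptor CXCR5 into the follicle, stay there through the loss of egress and T-zone receptors, and instruct B cells through ICOS, CD40 ligand and the cytokines IL-21 and IL-4 under the transcription factor BCL6. Follicular regulatory T cells share much of this programme and add FOXP3, and lymph nodes that drain the pancreas are where T cells meet islet antigens in autoimmune diabetes.

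The libraries held 8209 to 10936 cell barcodes. A median of 6285 UMIs was counted per follicular helper-like cell against 5030 in the other conventional CD4 cells, and the sums of the follicular helper-like cells held between 211720 and 544718 UMIs per mouse. In all, 370 barcode sequences occurred in 2 or more libraries (0.661%), 3 of the 251 cells had a barcode that was also present in another library, and none shared it with another follicular helper-like cell. Of the 251 cells, 14 (5.58%) were among the highest doublet scores, against 4.31% of all gated conventional CD4 cells, and they were kept.

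The number of follicular helper-like cells was 45, 34 and 30 in the Cre-negative mice and 70, 45 and 27 in the Cre-positive mice. As a share of conventional CD4 cells this was 2.35%, 1.74% and 1.28% against 3.41%, 1.68% and 1.26%. Cre-positive 1 had the highest share, and the other 2 Cre-positive mice lay inside or just below the Cre-negative range. Its exact Clopper-Pearson 95% interval was 2.66% to 4.28%, which covers counting error only. The mean was 1.79% ± 0.535 without Cre and 2.12% ± 1.14 with Cre (SD, n = 3 each). The difference of 0.328 percentage points was smaller than the spread between mice (exact two-sided permutation test, p = 0.9, with 0.1 the smallest p that 3 against 3 allows). Without Cre-positive 1 the difference turned to -0.317 percentage points.

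**Figure D1:**
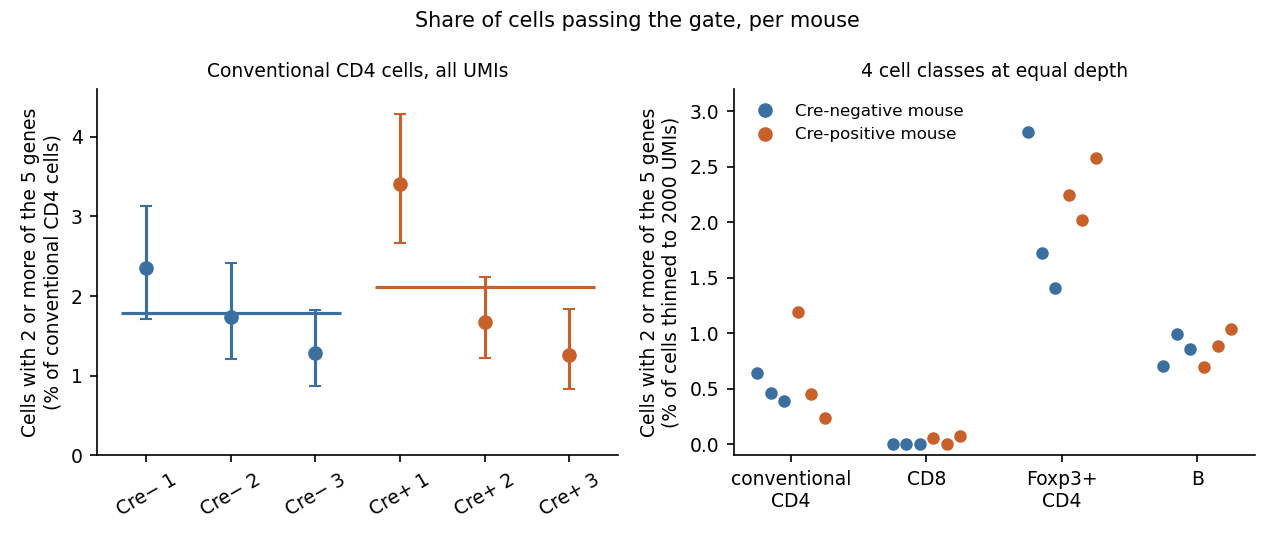
Left, share of conventional CD4 cells with 2 or more of the 5 genes in each mouse (percent, exact 95% intervals, lines at the group means), where Cre-positive 1 lies highest at 3.41% and the groups overlap. Right, the same share after thinning every cell to 2000 UMIs, one point per mouse, in 4 cell classes, where CD8 cells lie between 0% and 0.0750%.

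The 5 genes were detected unequally. Tox2, which encodes an HMG-box factor of the follicular programme, was found in 176 of the 251 cells, and Pdcd1, which encodes the inhibitory receptor PD-1, in 172. Cxcr5 was found in 116, Bcl6 in 97 and Il21 in 53. Pdcd1 with Tox2 alone was the most frequent combination (46 cells, 18.3%), followed by Cxcr5 with Pdcd1 alone and Cxcr5 with Tox2 alone (25 cells each). All 5 genes were detected in 4 cells, 4 of them in 22, 3 in 56 and exactly 2 in 169. Just outside the gate lay 856 cells with 1 of the 5 genes, and 11983 cells had none.

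The makeup of the gate varied from mouse to mouse. Cxcr5 was detected in 48.9%, 26.5% and 63.3% of the follicular helper-like cells of Cre-negative 1, 2 and 3, and in 48.6%, 35.6% and 59.3% of those of Cre-positive 1, 2 and 3. The lowest value belonged to Cre-negative 2, and the groups overlapped. Pdcd1 was detected in 64.4%, 58.8% and 70.0% against 65.7%, 84.4% and 66.7%, and Tox2 in 75.6%, 82.4% and 66.7% against 74.3%, 64.4% and 48.1%. Il21 was detected in 13.3%, 32.4% and 16.7% against 22.9%, 15.6% and 29.6%, and Bcl6 in 42.2%, 26.5% and 30% against 42.9%, 37.8% and 48.1%. Cells with Pdcd1 and Tox2 as their only gate genes numbered 6, 10 and 4 in the Cre-negative and 13, 13 and 0 in the Cre-positive mice.

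Deeper cells pass a gate of detected genes more easily, so the gate was also read in classes that should lack the programme and at equal depth. Of 9725 CD8 cells with a median of 5906 UMIs, 35 (0.360%) had 2 or more of the 5 genes, against 1.92% of conventional CD4 cells with a median of 5042. After thinning each cell to 2000 UMIs the shares were 0.0207% of CD8 and 0.548% of conventional CD4 cells, and 135 shallower conventional CD4 cells and 50 CD8 cells were left out. Foxp3-positive CD4 cells passed more often, with 74 of 978 cells (7.57%) on all UMIs and 2.17% after thinning. B cells, which express Cxcr5 and Bcl6 themselves, passed in 3.78% and 0.867%.

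A split of each cell's molecules gave a reading of the gate genes in UMIs that the gate had not used. The gate was applied to a random 50% of the UMIs of each cell and the genes were read in the rest. Of 131 cells that passed on the first part, 74.8% had at least 1 of the 5 genes in the other part. This compares with 35.0% of 488 cells with 1 gene in the first part and 3.58% of 8578 cells with none. Pdcd1 stood at 162, 46.2 and 3.38 CPM in these 3 classes, Tox2 at 126, 42.6 and 3.08 CPM, and Il21 at 65.1, 15.6 and 0.542 CPM. CPM are the UMIs of a gene or list per 1000000 UMIs of all genes in the summed cells of a class. Foxp3 appeared in the other part of 8.40% of the cells with 2 or more genes, 8.61% of those with 1 and 1.82% of those with none, so a Foxp3 count of 0 did not remove every cell with Foxp3 RNA.

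Marker lists of other cell types were read in the selected cells. The 20 B cell markers summed to 287 to 557 CPM per mouse in follicular helper-like cells, against 425 to 809 in conventional CD4 cells without any of the 5 genes and at least 45403 in B cells, and Ly6d and Spib were at 0. The 13 markers of NK, NKT and innate lymphoid cells summed to 13.6 to 44.1 CPM, against 26.5 to 36.5 CPM in cells without any of the 5 genes, with 8 detected and 5 at 0 (Klrb1c, Ncr1, Klre1, Klrk1 and Trav11d). The 7 gamma-delta T cell markers summed to 0 to 49.6 CPM, against 11.6 to 18.7 CPM, with Trdv4 and Cd163l1 at 0. The 9 germinal centre B cell markers summed to 437 to 599.8 CPM, against 85.6 to 122 CPM in conventional CD4 cells without any of the 5 genes and 154 to 285 CPM in B cells. Of that list 4 were tested in the first comparison, with S1pr2, Fas and Bcl2a1b called higher and Basp1 called lower. The 15 myeloid and dendritic markers summed to 193 to 645 CPM, highest in Cre-positive 3, against 213 to 300.4 CPM in cells without any of the 5 genes, with Itgax, Flt3, Clec9a and Ly6c2 at 0. Their part in the results was not tested.

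Regulatory T cell markers were present in the follicular helper-like cells. The 13 markers outside Foxp3 summed to 1188, 1166 and 1554 CPM in the Cre-negative and 1039, 1065 and 835 CPM in the Cre-positive mice, so the groups did not overlap. In the comparison of genotypes, 9.87% of all single genes did not overlap either. Foxp3-positive CD4 cells held 1968 to 2592 CPM and conventional CD4 cells without the 5 genes 219 to 280 CPM. Ikzf2, which encodes Helios, was detected in 176 of the 251 cells, and Ikzf2 or Il2ra in 182 (72.5%), against 8.85% of the other conventional CD4 cells. Thus 69 cells had neither, 7 to 16 per mouse. The comparisons with the other conventional and with the activated cells, and those between genotypes, were also run without cells that had either gene. The Foxp3 and Cxcr5 comparisons could not be, for want of cells.

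The first comparison set the follicular helper-like cells against the other conventional CD4 cells of the same mice, on genes that the gate did not use. Summed UMIs per mouse entered edgeR's quasi-likelihood test, blocked by mouse, and p-values were adjusted by Benjamini-Hochberg. At an adjusted p of 0.05, 1456 of 9959 genes were higher (14.6%) and 1449 were lower (14.5%). Since the cells were picked on 5 genes that belong to one programme, genes that accompany that programme were bound to differ, and the counts describe the selected cells. TMM scaling placed the log2 fold changes 0.24 below the log2 ratios of plain CPM (median over 9944 genes), and a fold change of 0 in the test thus corresponds to a somewhat higher CPM in the follicular helper-like cells. Of the list members called, mt-Nd2, mt-Atp6 and mt-Nd5 were lower by the test while their mean CPM was higher.

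Follicular helper genes that the gate did not use were mostly higher. Of 28 such genes 26 passed the low-count filter, 20 were called higher and 2 lower, with a median log2 fold change of 1.29 against -0.04 over all genes tested. The 4 genes not called were Tcf7, Cd40lg, Il6st and Cd84. With the gate on a random 50% of the UMIs and the levels from the rest, 16 of 25 were called higher and 1 lower (median 1.13). Without cells that had an Ikzf2 or Il2ra UMI, 14 of 24 were higher and 1 was lower (median 1.07).

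Among the transcription factors, Maf, the c-MAF factor that drives Il21 and Il4 expression, stood at 397, 502 and 255 CPM in the Cre-negative and 338, 363 and 279 CPM in the Cre-positive mice. The other conventional CD4 cells held 30.4 to 52.9 CPM, below every follicular helper-like value. The log2 fold change was 2.88 (SE 0.0994, adjusted p = 5.64e-41 by edgeR, higher in 6 of 6 mice). Maf lies at chr8:115682942-115707794 on the minus strand (whole gene, GENCODE M21 on GRCm38, which is mm10).

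Ascl2, a factor that raises Cxcr5 ahead of Bcl6, was rare but concentrated in these cells. It stood at 21.6, 30.02 and 18.9 CPM in the Cre-negative and 18.4, 26.1 and 8.13 CPM in the Cre-positive mice, and at no more than 0.389 CPM in the other conventional CD4 cells of any mouse (log2 fold change 6.59, SE 0.506, adjusted p = 1.53e-19). It was detected in 24 of 251 follicular helper-like cells, 1 of 856 cells with 1 gate gene, 9 of 11983 cells with none and 2 CD8 cells. Tox rose by 1.11 on the log2 scale, Irf4 by 1.21, Pou2af1, a B cell coactivator also found in follicular helper cells, by 2.68, and Batf by 0.61. Cebpa, known mainly as a myeloid factor, stood at 8.13 to 45.3 CPM against 0.583 to 1.98 CPM (4.34 on the log2 scale, SE 0.38, adjusted p = 8.71e-17). Tcf7, which encodes TCF-1, held 482 to 557 CPM without Cre and 418 to 589 CPM with Cre, and did not differ by the test (log2 fold change 0.01, SE 0.0807, adjusted p = 0.975).

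Surface receptors and their adaptors made up much of the rest of the list. Izumo1r, which encodes folate receptor 4, was detected in 230 of the 251 cells, 57.4% of cells with 1 gate gene and 22.3% of cells with none, and in 10.9% of CD8 cells. Its level was 518, 763 and 685 CPM in the Cre-negative and 665, 503 and 415 CPM in the Cre-positive mice, above the 110 to 152 CPM of the other conventional CD4 cells (log2 fold change 1.96, SE 0.0844, adjusted p = 1.05e-34). At an equal depth of 2000 UMIs it was found in 66.0% of follicular helper-like cells, 38.2% of cells with 1 gate gene and 13.0% of cells with none.

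Icos, the costimulatory receptor for follicular entry and maintenance, held 201, 163 and 189 CPM in the Cre-negative and 213, 116 and 103 CPM in the Cre-positive mice, against 30.3 to 48.4 CPM. The fold change was 1.81 on the log2 scale (SE 0.116, adjusted p = 6.67e-24). Sh2d1a, which encodes the adaptor SAP needed for lasting contact with B cells, rose by 1.81, its receptor partner Slamf6 by 1.38, Cd200 by 2.64 and the inhibitory receptor Btla by 0.95. Il6ra, the receptor chain for IL-6, was lower in 6 of 6 mice (60.6 to 83.1 against 111 to 134 CPM, log2 fold change -0.93, adjusted p = 1.03e-09), and so was St8sia1 in 5 of 6 (log2 fold change -0.59).

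**Figure D2:**
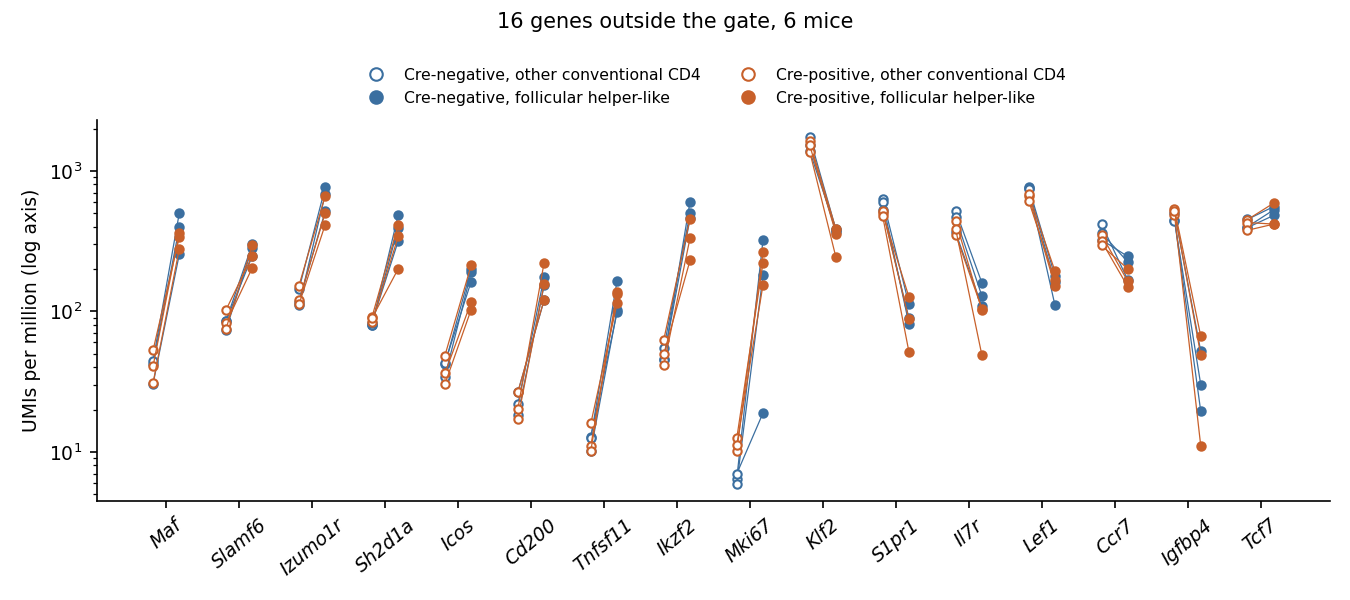
Level of 16 genes outside the gate in CPM on a log axis, for each of 6 mice, with lines from the other conventional CD4 cells (open) to the follicular helper-like cells (filled) of the same mouse. Maf to Mki67 lie higher and Klf2 to Igfbp4 lower in the follicular helper-like cells of every mouse, while Tcf7 overlaps.

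Helper molecules were found in subsets of the cells. Besides Il21 in 53 cells, Tnf was detected in 48, Ifng in 33, Il4 in 32, Il10 in 6, Il2 in 5 and Cxcl13 in 1. Il17a was detected in 0 of 251 cells, which allows a share of cells with a UMI of up to 1.20% (counting error only) and sets no limit on cells that express the gene below detection. Il4, the follicular cytokine for class switching, was found in 12.7% of follicular helper-like cells, 1.1% of cells with 1 gate gene, and 22 of 11983 cells with none, as well as in 4 CD8 cells. Il21 and Il4 were detected together in 10 cells, Il21 and Ifng in 11, and Il4 and Ifng in 2.

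As summed levels, 8 of 19 helper cytokine genes passed the filter, of which 4 were called higher (Tnfsf11, Ifng, Tnf and Tgfb1) and 1 lower (Ltb, with a higher CPM in 2 of 6 mice). Tnfsf11, which encodes RANK ligand, stood at 101, 98.6 and 165 CPM without Cre and 114, 133 and 138 CPM with Cre against 10.2 to 15.9 CPM (3.12 on the log2 scale, SE 0.156, adjusted p = 1.32e-30). Ifng ranged more widely, from 11.9 to 75.3 CPM, with the extremes in Cre-positive 2 and Cre-positive 1 (log2 fold change 2.47, SE 0.257, adjusted p = 4.1e-13). Tnfsf8, which encodes CD30 ligand, rose by 2.28 on the log2 scale. Cd40lg, the key contact signal to B cells, held 73.6 to 142 CPM against 76.9 to 93.1 CPM and did not pass (log2 fold change -0.12, SE 0.122, adjusted p = 0.506).

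Genes of naive cells, homing and egress formed the opposite group. None of 19 tested was called higher and 17 were called lower, with a median log2 fold change of -1.93. With the gate on a random 50% of the UMIs 18 of 19 were lower. Klf2, the factor that sustains S1pr1, held 367, 382 and 383 CPM in the Cre-negative and 384, 242 and 358 CPM in the Cre-positive mice, against 1372 to 1742 CPM (-2.37 on the log2 scale, SE 0.0826, adjusted p = 5.92e-41). S1pr1, the receptor for egress into lymph, held 51.5 to 127 CPM against 477 to 632 CPM (-2.78 on the log2 scale, SE 0.109, adjusted p = 9.08e-37).

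Il7r, the survival receptor of naive and memory cells, fell by 2.22 on the log2 scale, and Lef1, a factor of naive T cells, by 2.34. The fall of Ccr7, the receptor that holds T cells in the T zone, was smaller. It held 224, 167 and 246 CPM in the Cre-negative and 163, 150 and 201 CPM in the Cre-positive mice against 294 to 417 CPM (-1.09 on the log2 scale, SE 0.0991, adjusted p = 2.65e-15). At equal depth Ccr7 was still detected in 19.2% of follicular helper-like cells, against 44.1% of cells with none of the gate genes, and S1pr1 in 15.6% against 61.7%. Of the chemokine and migration receptors 15 were tested, 6 were called higher and 7 lower. S1pr2, the receptor that confines cells to the germinal centre, stood at 7.12 to 17.3 against 1.38 to 4.18 CPM (1.91 on the log2 scale, SE 0.406, adjusted p = 9.12e-05), and Cxcr3 rose by 2.15 on the log2 scale, with its highest level of 93.6 CPM in Cre-positive 1.

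Inhibitory and costimulatory receptors were higher in 13 of 15 tested and lower in none (median log2 fold change 0.89). Lag3 stood at 58.2, 94.3 and 37.8 CPM in the Cre-negative and 42.2, 80.7 and 32.5 CPM in the Cre-positive mice against 3.69 to 6.29 CPM (3.24 on the log2 scale, SE 0.238, adjusted p = 1.33e-20). Ctla4 rose by 1.99 and Tnfrsf4, which encodes OX40, by 2.06. Nt5e, which encodes the ectoenzyme CD73, held 66.1 to 90.6 CPM in 6 mice against 8.60 to 16.01 CPM. Genes induced by the antigen receptor were higher in 10 of 18 and lower in 2, Jun and Myc (median 0.68), with Egr2 at 16.6 to 56.7 CPM against 6.88 to 8.36 CPM. This result was weaker in 2 alternatives. With the gate on a random part of the UMIs and the levels from the rest, 7 were higher and 4 lower (median 0.22). Without cells that had an Ikzf2 or Il2ra UMI, 6 were higher and 2 lower (median 0.36). Without cells that had a Mki67 or Top2a UMI, 11 were higher and 2 lower (median 0.78). Of 12 anergy-linked genes 11 were tested, 6 were higher (among them Lag3, Egr2 and Nt5e, which are on other lists too) and 4 lower.

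Regulatory T cell markers were higher in 8 of 10 tested and lower in none (median 1.48). Ikzf2 held 498, 459 and 605 CPM in the Cre-negative and 457, 332 and 230 CPM in the Cre-positive mice against 41.3 to 62.9 CPM (2.81 on the log2 scale, SE 0.12, adjusted p = 1.45e-16). Il2ra, the high-affinity IL-2 receptor chain of regulatory and activated cells, was low, at 9.45 to 47.2 against 8.93 to 13.4 CPM (0.84 on the log2 scale, SE 0.254, adjusted p = 0.00707, higher in 5 of 6 mice). Of the IL-2 and STAT5 genes 3 of 10 were higher and 5 lower.

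Cell cycle genes were higher in 21 of 22 tested and lower in none (median 2.64), and they fill most of the genes with the largest fold change. Mki67, a proliferation marker, held 321, 180 and 18.9 CPM in the Cre-negative and 222, 263 and 154 CPM in the Cre-positive mice against 5.93 to 12.4 CPM, so Cre-negative 3 lay far below the other 5 mice (log2 fold change 4.21, SE 0.416, adjusted p = 0.000755 by edgeR). Mki67 or Top2a was detected in 58 of the 251 cells (23.1%) and in 5.08% of the other conventional CD4 cells. By mouse this was 13, 5 and 5 cells in the Cre-negative and 12, 17 and 6 cells in the Cre-positive mice. Without those cells 2 of 12 cell cycle genes were called higher and 1 lower, and follicular helper genes outside the gate were higher in 20 of 26 and lower in 2. With all cells 14.6% of all genes were called higher. Mki67 and Top2a are themselves on the cell cycle list, so fewer calls on that list follow at least in part from the removal.

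The 12 higher genes of largest fold change were Ascl2, Cebpa, Ttc39c and the cell cycle genes Cdk1, Rrm2, Esco2, Kif11, Ckap2l, Mki67, Hist1h2ap, Pclaf and Knl1, from 4.06 (Knl1) to 6.59 (Ascl2) on the log2 scale. Without cells with an Ikzf2 or Il2ra UMI, Rrm2, Mki67, Hist1h2ap and Pclaf did not pass, with adjusted p values of 0.148, 0.104, 0.181 and 0.0642. The 10 lower genes included Pdlim4 (0 to 14.2 against 124 to 148 CPM, log2 fold change -4.29), Igfbp4 (11.02 to 66.4 against 442 to 535 CPM, -4.03), Prf1 (-3.84) and Vipr1 (-3.03). The hemoglobin gene Hbb-bs was among them (log2 fold change -5.96), but its level in the other conventional CD4 cells came from 2 mice, Cre-negative 1 with 816 CPM and Cre-positive 2 with 370 CPM, against 0.328 to 7.09 CPM in the rest, and it did not pass with DESeq2 (adjusted p = 0.12).

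Effector and memory genes were called higher in 10 of 15 and lower in 2 (Emb and, in 4 of 6 mice, Crip1), and glycolysis genes higher in 6 of 14 and lower in 1, with Gapdh at 742 to 1258 against 380 to 488 CPM. Type I interferon response genes went the other way, with 3 of 30 called higher (Isg15, Isg20 and Ifi27l2a) and 14 lower (median log2 fold change -0.63). Heat shock genes, a sign of handling stress, were called lower in 4 of 10 and higher in none (median -0.07). Their summed CPM were 7126, 4601 and 4695 in the Cre-negative and 5570, 7598 and 6642 in the Cre-positive mice. In cells with none of the 5 genes they were 5494, 4987 and 5240, and 5280, 6407 and 6174. The median mitochondrial share was 4.12% to 5.29% in follicular helper-like cells against 3.71% to 4.63% in the other conventional CD4 cells.

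**Figure D3:**
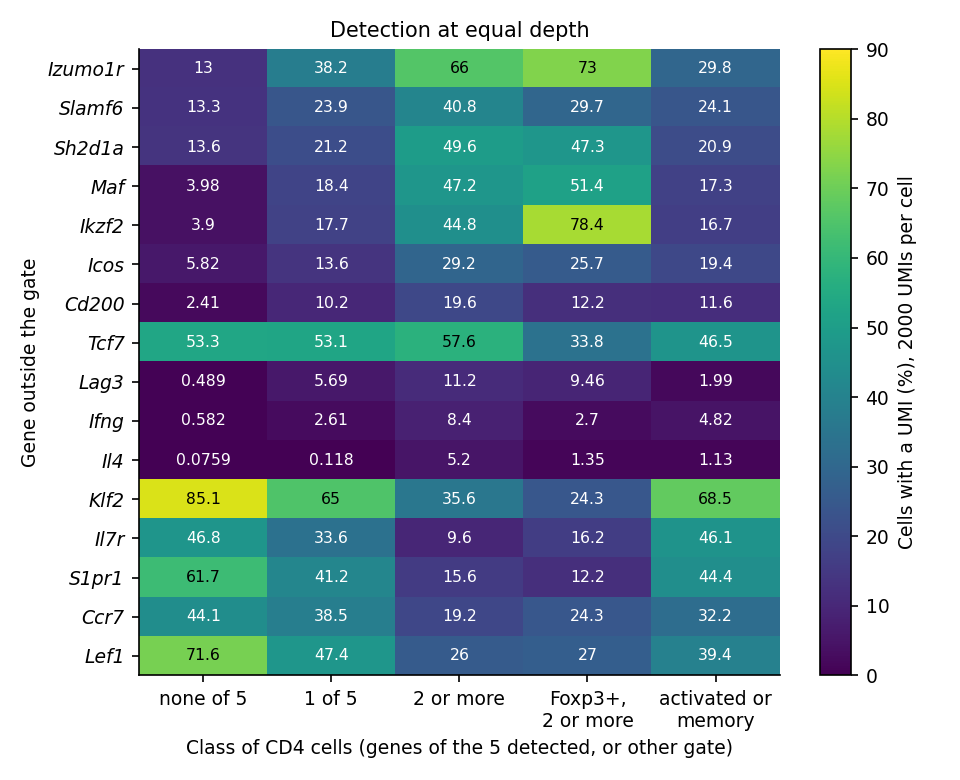
Percent of cells with a UMI of 16 genes outside the gate (rows) in 5 classes of CD4 cells (columns), after thinning every cell to 2000 UMIs. Izumo1r rises from 13.0% with none of the 5 genes to 38.2% with 1 and 66.0% with 2 or more, and S1pr1 falls from 61.7% to 41.2% and 15.6%.

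The second comparison asked what sets the follicular helper-like cells apart from other antigen-experienced CD4 cells. It used 708 activated or memory conventional CD4 cells, defined by at least 3 of the 9 genes S100a4, S100a6, Lgals1, Itgb1, Cxcr6, Ccr2, Id2, Tbx21 and Ccl5 and fewer than 2 of the gate genes. Of 6127 genes tested 370 were higher in follicular helper-like cells (6.04%) and 417 lower (6.81%). The comparison class was not made of T cells alone by its RNA. Its myeloid and dendritic markers summed to 585 to 2177 CPM and its B cell list, which holds class II genes, to 2381 to 6243 CPM. The 8 lower genes of largest fold change belonged to that signal (Il1b, H2-M2, Ifitm3, H2-Ab1, H2-Eb1, Cd74, H2-Aa and Plbd1). Il1b had 0 UMIs in the follicular helper-like cells of all mice and 38.3 to 68.6 CPM in the activated class, which makes it at least 39.8-fold lower against a floor of 3 UMIs over all mice.

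Leaving out 526 activated cells with a UMI of Fscn1, Cst3, Lyz2, Tyrobp or H2-Aa, an alternative added after the data had been seen, kept 182 cells. Cst3 was also detected in 46.9% of conventional CD4 cells with none of the gate genes, so this removed T cells too. It gave 589 calls, of which 379 were among the 787 above. Follicular helper genes outside the gate were called higher in 15 of 24 and, without those cells, in 9 of 20, with 1 lower in each. Naive, homing and egress genes were called lower in 12 of 19 and in 14 of 18, with none higher.

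Single genes marked the difference from activated cells. Maf held 255 to 502 CPM against 99.5 to 167 CPM (1.18 on the log2 scale, SE 0.101, adjusted p = 6.03e-11, higher in 6 of 6 mice), Izumo1r rose by 1.25 on the log2 scale, Smco4 by 1.48 and Sh2d1a by 1.33. Id3, an inhibitor of E proteins that is kept in follicular cells, held 60.4 to 99.2 against 21.5 to 47.3 CPM (1.01 on the log2 scale, SE 0.168, adjusted p = 3.56e-05). Tcf7 was slightly higher (log2 fold change 0.28, adjusted p = 0.0197), but not without the 526 cells (-0.08). Icos did not pass (164 ± 45.5 against 129 ± 24.6 CPM, SD, n = 6, log2 fold change 0.24, adjusted p = 0.185).

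The 8 higher genes of largest fold change against activated cells were H2-Q2, Pou2af1, Nfia, Itgb8, Angptl2, Nav2, Lag3 and Fam43a. H2-Q2, a nonclassical class I gene, stood at 45.3, 34.3 and 18.9 CPM in the Cre-negative and 45.9, 28.5 and 29.8 CPM in the Cre-positive mice against 2.69 to 7.01 CPM (2.98 on the log2 scale, SE 0.335, adjusted p = 2.6e-08). H2-Q2 has near-identical neighbours in the class I region, among which reads can be split, so its level is uncertain. Nav2 held 62.3 to 166 CPM against 13.2 to 54.99 CPM.

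Il7r was lower by 2.17 on the log2 scale (48.8 to 160 against 323 to 555 CPM) and Klf2 by 1.72 against activated cells, and without the 526 cells these were -2.20 and -1.92. The activated class was selected on effector genes, so lower values of such genes in follicular helper-like cells follow in part from that choice. Effector and memory genes were lower in 6 of 11 tested and higher in 1, Cd44, with Crip1 and Ahnak lower also without the 526 cells (log2 fold changes -0.67 and -0.79). Cell cycle genes were higher in 10 of 22, glycolysis genes in 5 of 12, and none of either list was lower. Without cells with Mki67 or Top2a these were 1 of 9 and 3 of 11, and without cells with Ikzf2 or Il2ra 1 of 12 and 1 of 10.

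The third comparison set the same gate side by side without and with Foxp3. Foxp3-positive CD4 cells with 2 or more of the 5 genes numbered 18, 7 and 9 in the Cre-negative and 9, 13 and 18 in the Cre-positive mice. Only Cre-negative 1, Cre-positive 2 and Cre-positive 3 had the 10 cells in each class set as a minimum, so 3 mice were used. Of 3829 genes 70 were higher in follicular helper-like cells (1.83%) and 71 lower (1.85%).

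All 6 tested regulatory T cell markers were lower in the follicular helper-like cells than in their Foxp3-positive counterparts. The classes were split on Foxp3 UMIs, so genes that accompany Foxp3 were bound to differ, and these values describe the selected cells. Ikzf2 held 498, 332 and 230 CPM in Cre-negative 1, Cre-positive 2 and Cre-positive 3, against 920, 973 and 957 CPM (log2 fold change -1.48, SE 0.183, adjusted p = 8.27e-10). Il2ra held 32.4, 26.1 and 19.0 against 159, 109 and 96.9 CPM (log2 fold change -2.24, SE 0.372, adjusted p = 3.7e-06), and Ctla4 was lower by 0.92 and Nrp1 by 1.48. Of the follicular helper genes outside the gate 3 of 20 were higher (Cd40lg, Tnfsf8 and Tcf7) and 3 lower (Maf, Izumo1r and, in 2 of 3 mice, Batf), with a median log2 fold change of -0.20. Cd40lg stood at 86.3, 73.6 and 94.9 against 39.7, 33.5 and 24.2 CPM (log2 fold change 1.39, SE 0.4, adjusted p = 0.0258). Il4 was detected in 32 of 251 follicular helper-like cells and in 1 of the 74 Foxp3-positive cells, a difference that was not tested.

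Cell cycle genes led the higher genes of this comparison, with 13 of 20 called and none lower. Hist1h1b stood at 632, 465 and 762 against 19.8, 0 and 24.2 CPM (log2 fold change 5.3, SE 0.337, adjusted p = 1.93e-25), and Hmmr at 69.0, 68.8 and 84.0 CPM against 0 UMIs, at least 10.7-fold higher on a floor of 3 UMIs over the 3 mice. Without cells with a Mki67 or Top2a UMI no gene passed among 2370 tested by edgeR, while the log2 fold changes were -1.94 for Il2ra (main value -2.24, adjusted p = 0.135), -1.23 for Ikzf2 (main value -1.48, adjusted p = 0.106), -1.05 for Ctla4 and -0.34 for Nrp1. With all cells DESeq2 called 31 genes, and edgeR called 54 genes without Cre-negative 1 and 84 without Cre-positive 3.

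**Figure D4:**
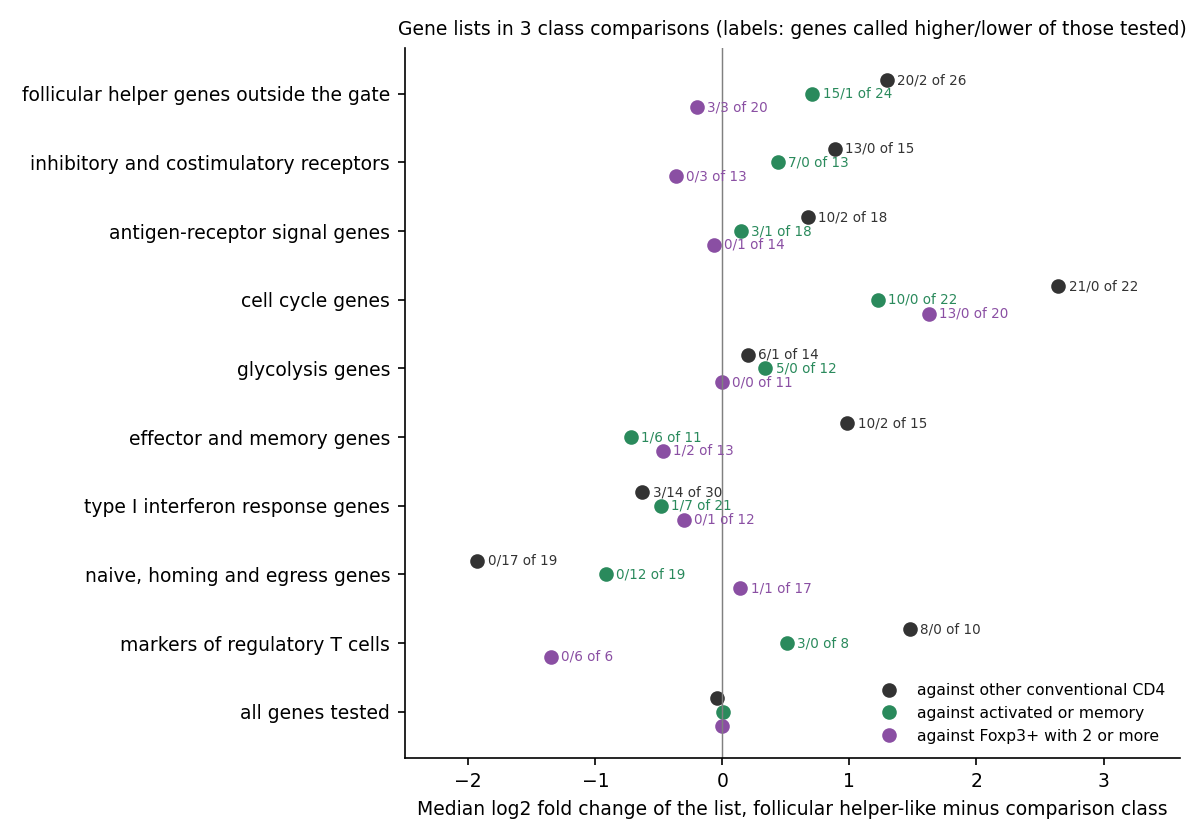
Median log2 fold change of 9 gene lists and of all genes tested, follicular helper-like cells against 3 comparison classes (colours), with the number of genes called higher and lower of those tested beside each point. Follicular helper genes lie at 1.29, 0.71 and -0.20, naive and homing genes at -1.93, -0.92 and 0.14.

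Within the follicular helper-like cells, those with Cxcr5 were compared with those without. They numbered 116 and 135, and 5 mice had 10 cells of each kind (Cre-negative 2 had 9 with Cxcr5 and was left out). No gene passed in either direction (0% of 3222 tested, edgeR), with 141 genes at an unadjusted p under 0.05 and 0 calls with DESeq2. Without Cre-positive 1 there were 2 calls. The 5 genes of smallest p were Id3, Hist1h2ae, Bmyc, Nav2 and Mif, and none of them passed. Id3 held 85.4, 94.9, 99.6, 167 and 121 CPM in Cxcr5-positive cells against 34.8, 109, 36.6, 54.1 and 24.5 CPM in Cxcr5-negative cells of Cre-negative 1 and 3 and Cre-positive 1, 2 and 3, higher in 4 of 5 mice (log2 fold change 1.31, SE 0.285, adjusted p = 0.222 by edgeR). Mif was lower in 5 of 5 (357 ± 87.4 against 529 ± 146 CPM, SD, n = 5, log2 fold change -0.58, adjusted p = 0.619 by edgeR). Follicular helper genes outside the gate lay above 0 in 12 of 19 and cell cycle genes in 18 of 19, against 1590 of all 3222 genes, with none called. Without cells with Mki67 or Top2a 2 cell cycle genes were tested (median log2 fold change 0.11).

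The comparison of the 2 genotypes within the follicular helper-like cells called no gene. Of 5114 genes tested over 3 against 3 mice 0 were higher (0%) and 0 lower (0%) in Cre-positive mice by edgeR, 211 genes had an unadjusted p under 0.05, DESeq2 called 0, and 505 genes (9.87%) did not overlap between the groups. Without Cre-negative 1, or without Cre-positive 2, 2 genes were called. The 10 genes of smallest p, none of which passed, were Zfp36, Man1a, H2-Q4, Ier2, Nfkbiz and Wsb1, which lay lower in Cre-positive mice, and Anxa2, S100a6, Aprt and Cd55, which lay higher.

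Zfp36, which encodes the mRNA-decay protein tristetraprolin, held 425, 523 and 468 CPM in the Cre-negative and 252, 218 and 252 CPM in the Cre-positive mice, with no overlap (log2 fold change -0.92, SE 0.183, adjusted p = 0.0692 by edgeR). Ier2, an immediate early gene, held 352, 450 and 666 against 240, 294 and 230 CPM (log2 fold change -0.89, adjusted p = 0.334 by edgeR). Anxa2, a calcium-dependent membrane protein of effector cells, held 25.9, 47.2 and 28.3 against 93.6, 61.7 and 125 CPM (log2 fold change 1.57, SE 0.333, adjusted p = 0.107 by edgeR). S100a6 held 73.3, 77.2 and 99.2 against 226, 126 and 144 CPM (log2 fold change 1.08, adjusted p = 0.2 by edgeR). H2-Q4 held 180 to 188 against 73.2 to 125 CPM, with the same caution on class I genes as for H2-Q2.

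Gene groups gave no calls between genotypes. Follicular helper genes outside the gate lay below 0 in 21 of 26 (median log2 fold change -0.14, against 0.00 over all genes, of which 2572 of 5114 lay below 0), and antigen-receptor signal genes, many of them also sensitive to handling, in 15 of 17 (median -0.39). Beside them heat shock genes lay above 0 in 7 of 8 (median 0.21) and mitochondrially encoded genes below 0 in 11 of 13 (median -0.03), and the part of handling was not tested. Egr2 held 36.7, 55.7 and 56.7 against 33.1, 16.6 and 19.0 CPM (log2 fold change -0.96, SE 0.395, adjusted p = 0.999 by edgeR), and Egr3 lay the other way (22.5 ± 12.5 against 45.8 ± 26.2 CPM, SD, n = 3 each, log2 fold change 1.23, adjusted p = 0.999 by edgeR). Maf, Izumo1r, Sh2d1a, Icos and Cd200 overlapped between the groups. Tox held 280, 262 and 321 against 240, 211 and 165 CPM and Ikzf2 498, 459 and 605 against 457, 332 and 230 CPM, without overlap and without passing (adjusted p = 0.999 by edgeR for both). The summed regulatory T cell markers, which include Ikzf2, also lay lower in the Cre-positive mice, as given above. Of the 6 tested singly 5 lay below 0 and 0 were called. Without cells with an Ikzf2 or Il2ra UMI the log2 difference was 0.22 for Tox, -0.80 for Zfp36 and -0.49 for Ier2, none of them passing, and antigen-receptor genes had a median of -0.29 over 10 tested.

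Whether the genotype difference in follicular helper-like cells departed from that in the other conventional CD4 cells was asked with an interaction term, fitted to 12 class sums and blocked by mouse. Of 10872 genes 2 were called higher, Vim and Cd55 (0.0184%), and 3 lower, Ier2, Gadd45b and Zfp36 (0.0276%). These calls were fragile. DESeq2 called 0, a mitochondrial limit of 5% left 0, and each gene lost its call without at least 2 of the 6 mice, taken singly. Without Cre-negative 1 there were 13 calls, without Cre-negative 3 there were 10, without Cre-positive 1 there were 8 and without Cre-positive 3 there were 3.

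Zfp36 at chr7:28376784-28380253, Ier2 at chr8:84661331-84662852 and Gadd45b at chr10:80930073-80932204 (whole genes, GENCODE M21, GRCm38) are early response genes. In follicular helper-like cells Gadd45b, a stress and NF-kB target, held 352, 523 and 255 CPM in the Cre-negative and 121, 228 and 201 CPM in the Cre-positive mice, without overlap. In the other conventional CD4 cells it held 55.7 to 61.3 and 54.0 to 75.2 CPM, with overlap. The interaction was -0.99 on the log2 scale (SE 0.2, adjusted p = 0.00272). Zfp36 held 143 to 175 and 128 to 190 CPM in the other conventional CD4 cells (interaction -0.79, SE 0.179, adjusted p = 0.0211), and Ier2 283 to 314 and 308 to 324 CPM (interaction -0.86, SE 0.173, adjusted p = 0.00272).

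Vim, which encodes the intermediate filament vimentin (chr2:13573927-13582826), held 218, 214 and 269 CPM in the Cre-negative and 338, 328 and 743 CPM in the Cre-positive mice, with the highest value in Cre-positive 3. The other conventional CD4 cells held 288 to 324 and 308 to 311 CPM (interaction 1.00, SE 0.185, adjusted p = 0.00135). In the follicular helper-like cells Cre-positive 3 was also the mouse with the highest sum of myeloid and dendritic markers, 645 CPM. The next highest sum, 425 CPM, was that of Cre-negative 1, where Vim held 218 CPM. A relation between these markers and Vim was not tested. Vim lost its call without cells with a Mki67 or Top2a UMI, where its log2 difference between genotypes in follicular helper-like cells was 0.14. It also lost it without cells with Ikzf2 or Il2ra, and with Cxcr5, Bcl6 or Il21 required. Cd55, which encodes the complement inhibitor decay-accelerating factor (chr1:130439027-130462744), rested on few molecules, with 2, 2 and 1 UMIs in the Cre-negative and 14, 11 and 13 UMIs in the Cre-positive mice. That was 4.31, 8.58 and 4.72 against 25.7, 26.1 and 35.2 CPM, while the other conventional CD4 cells held 67.8 to 79.4 and 48.4 to 70.1 CPM (interaction 2.70, SE 0.573, adjusted p = 0.00668).

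**Figure D5:**
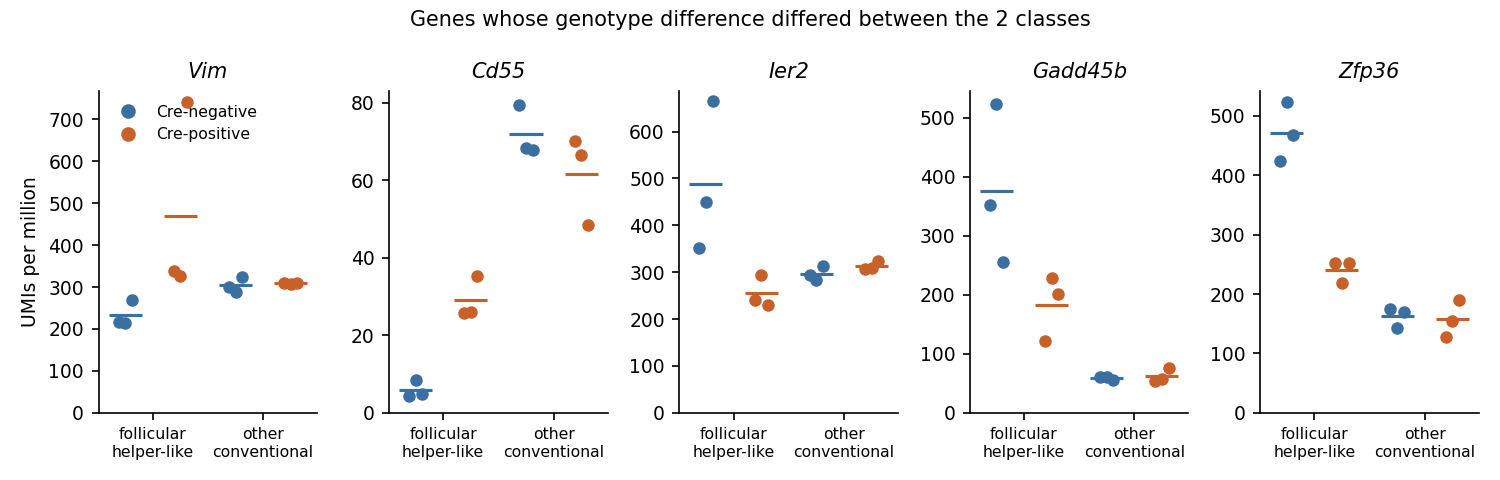
Level in CPM of the 5 genes called in the interaction, in follicular helper-like and other conventional CD4 cells, one point per mouse with lines at the means of 3 mice. Gadd45b, Ier2 and Zfp36 lie lower and Vim and Cd55 higher in Cre-positive follicular helper-like cells, while the other conventional CD4 cells lie close together or overlap.

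Gh, the growth hormone gene, was detected in 1, 0 and 0 follicular helper-like cells of the Cre-negative and in 2, 4 and 3 of the Cre-positive mice. In the other conventional CD4 cells it was at 0 CPM in the Cre-negative and at 9.001 to 14.4 CPM in the Cre-positive mice.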

How the data were processed

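The deposited matrices hold raw UMI counts, with genes in rows and barcodes in columns. The submitters' processing notes name Cell Ranger 6.1.2 and mm10. Which annotation release was used is not given in the sources used here, and positions were taken from GENCODE M21 by gene identifier. The floxed gene and some list members are not reported here. Barcodes with at least 500 UMIs, 300 genes and at most 10% mitochondrial UMIs were kept. Doublets were scored with Scrublet (scanpy 1.11.5), kept, and removed only as an alternative. Counts were summed per mouse and class and tested with edgeR 4.0.16 (TMM, low-count filter, robust, adjusted p 0.05). Gate genes were left out of the comparisons between classes, but not of the genotype and interaction tests. Only the Foxp3 and Cxcr5 comparisons left out mice with under 10 cells in a class. SE was derived from the log2 fold change and its F statistic. DESeq2 1.42.0 was an alternative. The scripts were tested on simulated data. Gate, lists and members were chosen with earlier results of these data known. Named genes are those of largest fold change passing with 1 direction in all mice, those of smallest p where few passed, and list members. p-values measure the spread between these libraries, each taken as 1 mouse.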

Additional observations from a re-analysis of the deposited data

Results flagged for a closer look

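The genotype effect differed between follicular helper-like and other conventional CD4 cells for 5 genes, by the interaction term of edgeR over 12 sums. The log2 difference of effects was 1.00 for Vim, 2.70 for Cd55, -0.86 for Ier2, -0.99 for Gadd45b and -0.79 for Zfp36. DESeq2 called none of them. Vim, Cd55 and Zfp36 lost their calls without cells with Mki67 or Top2a. Without cells with Ikzf2 or Il2ra, Vim, Ier2, Gadd45b and Zfp36 lost theirs. Vim lost its call without Cre-positive 3 or Cre-negative 1, and Cd55 without Cre-positive 3 or Cre-negative 1. Gadd45b lost it without Cre-positive 1 or Cre-negative 2, and Ier2 without Cre-positive 1 or Cre-negative 3. Zfp36 lost it without Cre-negative 2, Cre-positive 2 or Cre-positive 3.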

How the results depend on the processing

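The share difference turned to -0.317 percentage points without Cre-positive 1 and ranged from -0.317 to 0.754 over the mice left out. The counts that moved were as follows. With 3 or more gate genes there were 2 genotype, 1596 other-conventional, 467 activated and 15 interaction calls. Without cells with Ikzf2 or Il2ra there were 986, 199 and 1 for the last 3. The gate on a random 50% of the UMIs gave 1479 other-conventional calls. A 5% mitochondrial limit gave 442 activated, 65 Foxp3 and 0 interaction calls. DESeq2 gave 422, 31 and 0 for the same 3. No low-count filter gave 8 genotype, 1293 activated and 7 Cxcr5 calls. Both of the following choices were added after seeing the data. Leaving out Mki67 or Top2a cells gave 0 Foxp3 and 2 interaction calls. Requiring Cxcr5, Bcl6 or Il21 gave 2 interaction and 7 Cxcr5 calls. Leaving out 1 mouse at a time gave 0 to 2 genotype, 54 to 142 Foxp3, 3 to 13 interaction and 0 to 2 Cxcr5 calls. Of 1022 alternatives for the genes named by fold change or p-value 943 kept direction and side of the threshold, 66 no longer passed, 13 newly passed and 0 reversed. Genes named only as list members were not counted there, and some of them changed sign. Among these were Tcf7 against activated cells, without the 526 cells, and Tox between genotypes, without cells with Ikzf2 or Il2ra. With the replicate block the share difference was 0.328 (exact p = 1, smallest possible 0.25) and genotype calls were 0. The deviations of same-numbered mice had correlations of -0.135, -0.0273 and -0.0661, and the labels state no pairing. With 27 to 70 cells per mouse such values cannot decide whether the numbers pair the mice. The Foxp3 and Cxcr5 comparisons could not be fitted with 3 or more gate genes or without Ikzf2 or Il2ra cells, since too few mice had 10 cells. The 27 to 70 cells per mouse limit the precision of every genotype value.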
